A study of Sus scrofa with 2 samples.

Results

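Lymphocyte nuclei of the pig pancreas were examined in single-nucleus RNA-sequencing of 1 WT and 1 PIGinH11 Bama pig. In this assay each nucleus is caught in a droplet, its RNA receives the barcode of that droplet, and every molecule is counted once as a unique molecular identifier (UMI). A barcode was taken as a lymphocyte nucleus when 270 to 3700 genes and fewer than 13000 UMIs were detected, PTPRC had at least 1 UMI, the T cell genes CD3E, CD2, CD247, IL7R, THEMIS, BCL11B and SKAP1 together had at least 2 UMIs and 0.15% of all UMIs of the barcode, and the macrophage genes CD163, CSF1R, MRC1, MSR1 and F13A1 had none. The rule found 53 of 13189 WT barcodes and 55 of 14908 PIGinH11 barcodes within these limits, 108 of 28097 in all. Each group was 1 library from 1 animal, so no test between the pigs could be made, and every interval below is an exact 95% interval of counting error that does not cover the difference between animals.

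The PIGinH11 pig carried GIPRdn, hIAPP and PNPLA3 I148M, inserted at the H11 locus under promoters of beta cells or liver and therefore not aimed at lymphocytes, and the WT pig carried none of them. Both pigs were 18 months old, had eaten control diet up to 6 months and a high-fat and high-sucrose diet (HFHSD) for the following 12 months, so neither animal stands for an untreated pig. From each pig 1 piece from the body of the pancreas was taken. More UMIs were recovered per barcode in WT, where 13619 barcodes shared 55784067 UMIs (median 3216 each), than in PIGinH11, where 14964 barcodes shared 26228811 (median 1181.5 each). The barcodes that the rule took had medians of 2756 UMIs (749 to 10108) in WT and 1302 UMIs (629 to 8721) in PIGinH11.

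T cells recognise antigen through a receptor that signals by way of the CD3 chains and CD247, the kinases LCK, FYN and ZAP70, and adaptors such as SKAP1 and LCP2. Natural killer (NK) cells lack this receptor, use activating receptors such as KLRK1 and NCR1, and share with cytotoxic T cells the granule proteins granulysin, perforin and the granzymes. In the pancreas lymphocytes are a small population between the exocrine lobules and around islets, where they are studied for their part in pancreatitis and diabetes.

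Leukocyte RNA was found in most but not all of the chosen barcodes. The check used a haematopoietic list of 31 genes that have no part in the rule, mainly of cytoskeleton, adhesion and signalling, such as DOCK2, ARHGAP15, CORO1A and ITGB2. Nuclei with at least 0.5% of their UMIs in this list are called supported here, and 73 of the 108 were, 31 in WT and 42 in PIGinH11. They carried a median of 2.46% of UMIs in this list in WT (0.860% to 4.06%) and 2.30% in PIGinH11 (0.694% to 4.14%). The other 35 nuclei, 22 in WT and 13 in PIGinH11, had medians of 0.193% and 0.183%. The groups were apart, since the nearest unsupported nuclei were at 0.335% in WT and 0.470% in PIGinH11, but the 0.5% limit was set after the values had been seen. IQGAP2 had the most UMIs of the list in unsupported nuclei (127) and in acinar-marked nuclei (14294). The list marks leukocytes in general and not lymphocytes, since macrophage-marked nuclei had 0.997% of their summed UMIs in it in WT and 0.900% in PIGinH11. Of the 73 supported nuclei 9 had SKAP1 as their only T cell gene of the rule.

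**Figure D1:**
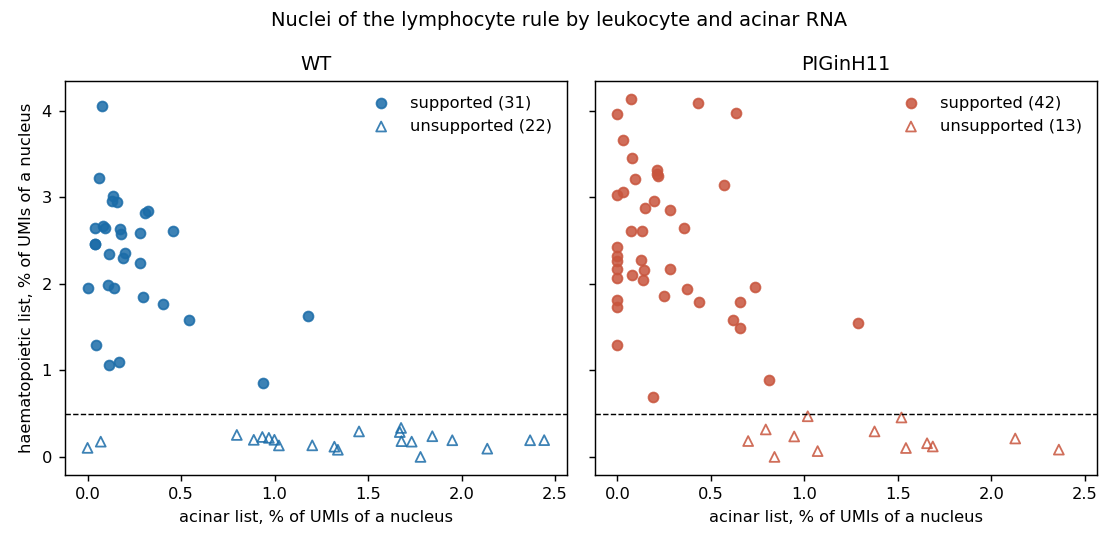
Each point is 1 nucleus of the rule, with the share of its UMIs from 7 acinar genes (x axis, percent) against the share from 31 haematopoietic genes (y axis, percent), for WT and PIGinH11. Filled circles are the 31 and 42 supported nuclei above the dashed line at 0.5%, open triangles the 22 and 13 unsupported nuclei, of which all but 2 WT nuclei lie at the acinar end of the x axis.

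Most of the 35 unsupported nuclei had the RNA of acinar cells, the enzyme-secreting cells that make up most of the pancreas. Of these nuclei 33 reached the minimum for an acinar nucleus, which was at least 3 UMIs and 0.15% of UMIs from EXTL1, CHN2, CDH4, EFEMP1, AGMAT, ADAD1 and RBPJL. Their median share of acinar UMIs was 1.40% in WT and 1.38% in PIGinH11, beside 1.39% and 1.28% of the summed UMIs of acinar-marked nuclei without PTPRC and T cell UMIs. Both nuclei below the minimum were in WT. One of them had 8504 UMIs, with 34 of GCG, the glucagon gene, and 110 of KCNB2, and the other had 957 UMIs, with 20 of the ductal list and none of the 7 acinar genes. The 35 nuclei entered through SKAP1, which was the only T cell gene detected in 30 of the 35, and through a single PTPRC UMI in 34 of the 35. SKAP1 UMIs were found in 70.8% of WT and 41.9% of PIGinH11 barcodes that reached the acinar minimum, and 1817 of 10165 WT and 1057 of 11994 PIGinH11 acinar barcodes met the T cell condition of the rule by themselves. PTPRC UMIs were present in 2.00% and 2.08% of those acinar barcodes, and 36 and 29 of them passed the whole rule. Of the barcodes that passed, 20 in WT and 13 in PIGinH11 were unsupported, and 16 in each library were supported. The supported nuclei had a median of 9 PTPRC UMIs in WT (1 to 29) and 4 in PIGinH11 (1 to 22), and only 2 of the 73 had a single one.

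The genes of the rule are a description, since they chose the nuclei. PTPRC (chromosome 10, 21482984 to 21601627, Sscrofa11.1), the leukocyte phosphatase CD45, had 3729 UMIs per 1000000 UMIs of the class (CPM) in supported WT nuclei (95% interval 3357 to 4131) and 3923 in PIGinH11 (3498 to 4385). In unsupported nuclei PTPRC was at 234 and 488 CPM. SKAP1 (chromosome 12, 24371699 to 24680280), an adaptor that links the T cell receptor to integrins, had 3648 and 4517 CPM in supported nuclei, 2275 and 1988 CPM in unsupported nuclei, and still 853 and 523 CPM in the acinar-marked barcodes that the rule did not take. Since most unsupported nuclei entered through SKAP1 alone, its level there was fixed by the choice and nothing is read from it. CD3E (chromosome 9, 45619730 to 45633972), a signalling chain of the T cell receptor, had 213 CPM (132 to 326) in supported WT nuclei and 304 CPM (195 to 452) in PIGinH11, and no UMI in unsupported nuclei of either library. THEMIS, which sets T cell receptor signal strength in thymocytes, had 711 and 582 CPM in supported nuclei, and 2 UMIs in all unsupported nuclei together. CD247, the zeta chain, had 437 and 481 CPM in supported nuclei against 40.6 CPM in unsupported WT nuclei and none in unsupported PIGinH11 nuclei. BCL11B, a factor that keeps T cell identity, had 213 and 380 CPM, CD2, an adhesion receptor, 163 and 367 CPM, and IL7R, the interleukin-7 receptor, 234 and 253 CPM in supported nuclei.

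**Figure D2:**
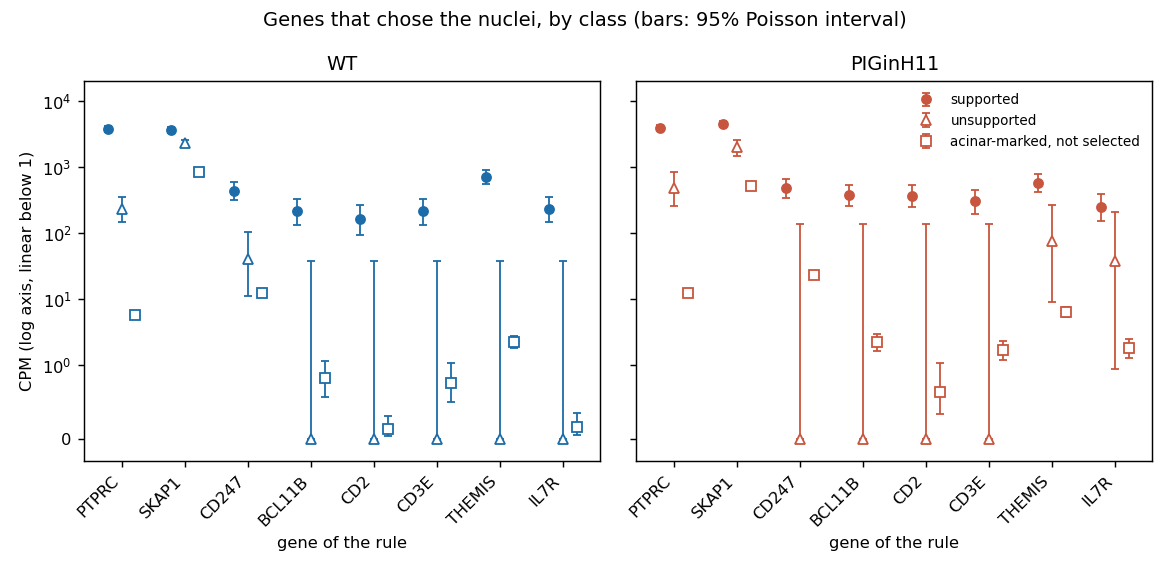
Level of PTPRC and the 7 T cell genes of the rule (CPM, log axis that is linear below 1), for WT and PIGinH11, with 95% Poisson intervals. The classes are supported nuclei, unsupported nuclei and acinar-marked barcodes that were not selected. A nucleus needed PTPRC and at least 2 UMIs of the 7 genes together, not each gene. PTPRC, CD3E and THEMIS are highest in supported nuclei, whereas SKAP1 is above 500 CPM in all 3 classes.

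At the edge of the rule, the 3 lowest members had 0.156% to 0.165% of UMIs in the T cell genes in WT and 0.152% to 0.157% in PIGinH11, and the 3 nearest barcodes left outside started at 0.147% in WT and 0.144% in PIGinH11, just under the 0.15% limit. The need for a PTPRC UMI left out more barcodes with leukocyte RNA than the share did. Among barcodes that met all other conditions without PTPRC, 15 in WT and 37 in PIGinH11 had at least 0.5% of UMIs in the haematopoietic list. Supported nuclei were 0.235% of WT barcodes (0.160% to 0.333%) and 0.282% of PIGinH11 barcodes (0.203% to 0.381%), and without the PTPRC condition they were 0.349% (0.255% to 0.465%) and 0.530% (0.420% to 0.660%). Both pairs of intervals overlapped, and the second pair lay farther apart with the higher share in PIGinH11, the library with fewer UMIs per barcode.

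Of 60 barcodes found in both libraries, none was taken by the rule in both. In WT, 1 barcode that the rule took was also present in the PIGinH11 library. RNA of other cell classes was common among the supported nuclei. Of these, 32 (16 in each library) also reached the acinar minimum and 40 the minimum of an acinar, ductal or endothelial nucleus. Whether this RNA came from a second cell or was free in the droplet was not tested. Scrublet, a doublet caller, marked 0 of 31 supported WT nuclei and 3 of 42 supported PIGinH11 nuclei, against 10.1% and 12.0% of the other barcodes.

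Outside the rule, the genes highest in supported nuclei relative to all other barcodes were led by ARHGAP15, ITGA4 and DOCK2. By log2 ratio of CPM, with 5 CPM added, ITGA4 was 7.63 higher in WT and 7.03 in PIGinH11, ARHGAP15 8.11 and 6.74, and DOCK2 7.21 and 6.33. ITGA4 is the alpha-4 integrin by which lymphocytes leave blood vessels, ARHGAP15 a Rac GTPase-activating protein and DOCK2 the Rac exchange factor of moving leukocytes. IKZF3 and IKZF1, zinc-finger factors of lymphocyte development, were at 6.61 and 6.30 and at 6.29 and 6.76. STAT4, which carries the interleukin-12 signal, was at 6.38 and 6.01. GNLY, the pig granulysin NK-lysin, was at 6.45 and 6.12, and CD226, an activating receptor of T and NK cells, at 6.10 and 6.55. LCP2, an adaptor of receptor signalling, was at 6.33 and 6.13, and RIPOR2 at 6.15 and 6.23. These values are no independent evidence for the class, because ARHGAP15, DOCK2 and IKZF1 belong to the list that defined support and because the other nuclei were not chosen for PTPRC. A log2 ratio of at least 1 over other barcodes in both libraries was reached by 589 of 2188 genes tested (26.9%) in supported nuclei and by 428 of 3457 (12.4%) in all 108 nuclei.

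ITGA4 (chromosome 15) and DOCK2 show how far these genes stood above the acinar background. ITGA4 was detected in 28 of 31 supported WT nuclei (90.3%) and 31 of 42 PIGinH11 nuclei (73.8%), and in 0.513% and 0.618% of acinar-marked barcodes with median depths of 3000 and 1198 UMIs. After every nucleus had been thinned to 500 UMIs, ITGA4 was found in 58.1% and 59.5% of supported nuclei against 0.109% and 0.309% of acinar-marked barcodes. The ITGA4 shares of the libraries lay closer together after thinning than before, and those of DOCK2 lay farther apart. A role of depth was not tested. DOCK2 gave 90.3% and 88.1% unthinned, and 41.9% and 57.1% after thinning, beside 0.247% and 0.669% in thinned acinar-marked barcodes.

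The genes of the T cell receptor complex and its coreceptors were detected broadly but with few UMIs each. In the matrices 17 of 23 genes of this list were found by symbol, 13 had a UMI in supported nuclei and 8 had at least 20. These 8 had a log2 ratio of at least 1 over the other barcodes, as had 26.9% of all genes tested, and over macrophage-marked nuclei, as had 19.5%. In this and the following lists the minimum of 20 UMIs was applied in the supported nuclei, so genes entered through the class in which they were high and nothing is read from these counts. Macrophage-marked nuclei were chosen to have no UMI of the T cell genes of the rule, so ratios of T cell genes over them are a description. TRAC, TRBC1, TRBC2, TRGC1 and TRGC2, the constant genes of the receptor itself, were not found by symbol and are not analysed here. The list made up 0.184% of the UMIs of supported WT nuclei and 0.219% in PIGinH11. CD226 had the most, with 42 UMIs in 15 WT nuclei and 59 UMIs in 24 PIGinH11 nuclei. CD6, a scavenger-type receptor of T cells, had 25 UMIs in 11 WT nuclei and 14 UMIs in 7 PIGinH11 nuclei, and TRAT1, which stabilises the receptor at the surface, had 19 UMIs in 10 and 17 UMIs in 12. CD96, a receptor for nectins, had 35 UMIs in 12 WT and 17 UMIs in 8 PIGinH11 nuclei, and 13 of the WT UMIs lay in a pair of nuclei described below. CD3D had 4 and 10 UMIs. CD3G, ICOS and PTCRA were at 0 in supported nuclei of both libraries. With 3 UMIs over the group taken as the limit of a count of 0, here and below, this allows up to 30.5 CPM in WT and 38.0 CPM in PIGinH11. TRDC was at 0 in all other barcodes as well, so no limit is given for it.

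CD4 and CD8 are coreceptors of the T cell receptor, and no cell type is read from them here. CD4 was detected in 7 of 31 WT and 8 of 42 PIGinH11 supported nuclei, and CD8A or CD8B in 9 and 14. In all, 15 of 73 nuclei carried CD4, 23 carried CD8A or CD8B and 3 carried both, while most carried neither. In acinar-marked barcodes CD4 was found in 0.168% and 0.301% and CD8A in 0.188% and 0.276%, and thinning reduced CD4 in supported nuclei to 6.45% and 4.76%, so a nucleus without a coreceptor UMI cannot be called negative at this depth.

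Of 26 genes of T cell receptor signalling 24 were in the matrices, 23 had a UMI in supported nuclei, and the 17 with at least 20 UMIs were at a log2 ratio of at least 1 over the other barcodes. Against macrophage-marked nuclei 13 of these 17 were. FYN, a kinase that phosphorylates the receptor chains, had 1077 CPM (882 to 1303) in WT and 1518 (1259 to 1816) in PIGinH11, with UMIs in 26 and 31 nuclei. FYN was 4.97 and 4.66 above other barcodes but 0.96 and 1.53 above endothelial-marked nuclei, on the log2 scale. CAMK4, a calcium-dependent kinase that acts on T cell transcription, had 925 and 823 CPM, with UMIs in 18 and 22 nuclei. LCK had 18 and 19 UMIs, in 14 and 15 nuclei. CBLB, the ubiquitin ligase that restrains T cell activation, and NFATC3 were also found in acinar-marked barcodes, CBLB in 39.4% and 21.3% and NFATC3 in 55.3% and 35.5% of them. LCP2, an adaptor shared by T cells and myeloid cells, stood 6.33 and 6.13 above all other barcodes on the log2 scale but -0.00 and 0.14 from macrophage-marked nuclei.

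Among 25 transcription factors of T cells, 24 had a UMI in supported nuclei and 18 had at least 20, of which 14 were at a log2 ratio of at least 1 over other barcodes in both libraries. That limit was reached by 26.9% of all genes tested. IKZF3 had 691 and 873 CPM in supported nuclei and was 7.12 and 7.46 above macrophage-marked nuclei. RUNX1 had 1585 and 1987 CPM, 5.08 and 5.61 above other barcodes, but 0.07 and 0.62 from macrophage-marked nuclei. RORA and FOXP1 were close to the pooled level of all other barcodes, most of which were acinar, RORA with 1829 and 1772 CPM and log2 ratios of 0.13 and -0.04, and FOXP1 with 1423 and 1493 CPM and log2 ratios of -0.07 and 0.07. RORA stood 1.95 and 4.43 above macrophage-marked nuclei and 1.22 and 1.42 above endothelial-marked nuclei. LEF1, a factor of naive T cells, had 31 UMIs in 8 WT nuclei and 21 UMIs in 7 PIGinH11 nuclei, of which 13 lay in 1 nucleus. TBX21, the factor of type 1 and cytotoxic responses, had 13 and 10 UMIs in 11 and 8 nuclei, and GATA3, of type 2 responses, had 6 and 6 UMIs. FOXP3, the factor of regulatory T cells, had no UMI in supported nuclei of either library, which allows up to 30.5 and 38.0 CPM.

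Among genes of homing and tissue residence, ITGA4 and CD44, the hyaluronan receptor, had the most UMIs, and CD44 was found in 21 and 22 supported nuclei, with 600 CPM in WT and 468 CPM in PIGinH11. CCR7, the lymph node homing receptor of naive T cells, CXCR3 and CCR6 had no UMI, CCR6 also not in any other barcode, and S1PR1, CD69 and CXCR6 had at most 3 UMIs in either library. ITGAE, the integrin of T cells within epithelium, had 13 UMIs in 3 WT nuclei and 3 UMIs in 2 PIGinH11 nuclei, but 8 and 4 of the WT UMIs came from the pair of nuclei rich in EBF1 described below, without which WT had 1 UMI. RGS1, a regulator of chemokine signalling named here after its values were seen, had 1 UMI in WT and 17 UMIs in 6 PIGinH11 nuclei.

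Cytotoxic and NK cell genes were present in both libraries. In macrophage-marked nuclei the list had 10 UMIs in 8 of 14 WT nuclei and 6 UMIs in 4 of 13 PIGinH11 nuclei, of which 9 were FCER1G, a signalling chain that myeloid and NK cells share. Of 27 genes 21 were in the matrices, 19 had a UMI in supported nuclei, and the 9 with at least 20 UMIs there were at a log2 ratio of at least 1 over other barcodes and over macrophage-marked nuclei. Granzymes A and B were not found by symbol and are not analysed here. KLRK1, the receptor NKG2D, had 33 UMIs in 13 WT nuclei and 51 UMIs in 16 PIGinH11 nuclei. GNLY (chromosome 3, 59067327 to 59072034) had 47 UMIs in 6 WT nuclei, with 21 in 1 of them, and 35 UMIs in 7 PIGinH11 nuclei. GNLY was thus held by a small share of supported nuclei, 19.4% and 16.7%, or 12.9% and 9.52% after thinning, compared with 0.188% and 0.276% of acinar-marked barcodes. NCR1, the NK receptor NKp46, had 12 and 8 UMIs in 5 nuclei of each library. CTSW, a protease of cytotoxic cells, had 16 and 20 UMIs, the chemokine CCL5 13 and 15, GZMH 13 and 11, and PRF1, perforin, 6 and 3. XCL1 had no UMI in any barcode. TYROBP had none in supported nuclei and 3 and 2 UMIs in macrophage-marked nuclei.

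**Figure D3:**
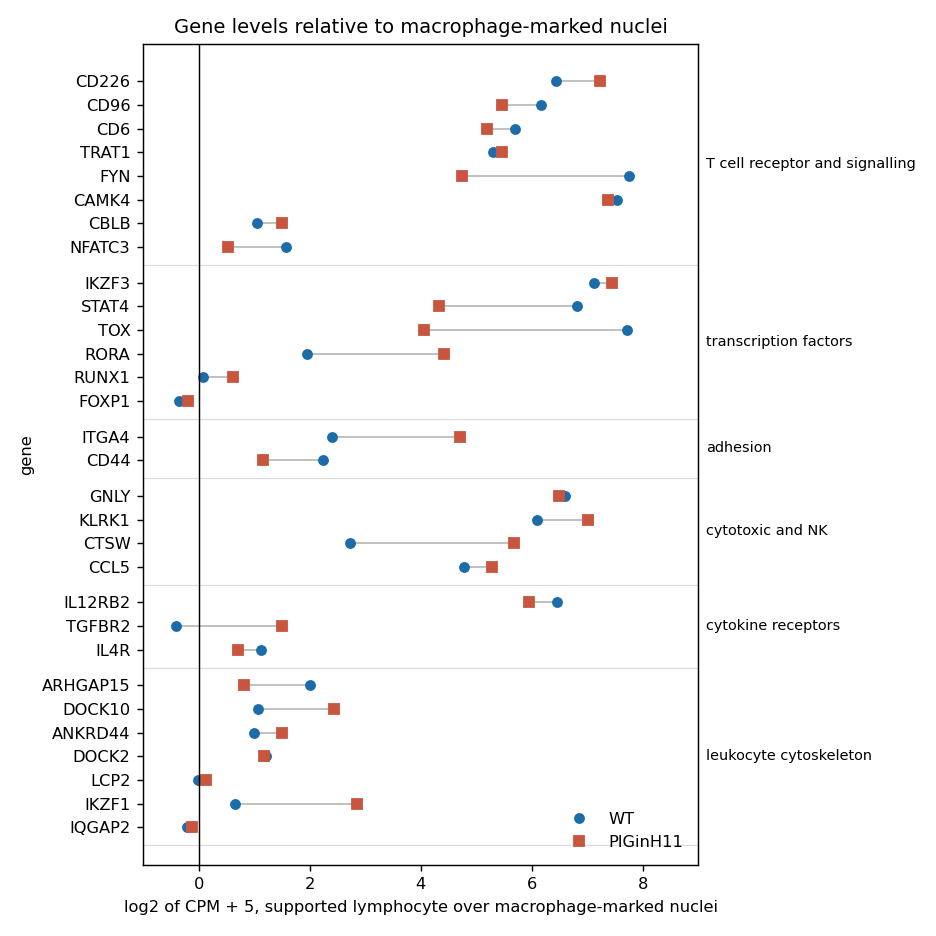
log2 ratio of the level (CPM with 5 added) in supported lymphocyte nuclei over macrophage-marked nuclei of the same library, by gene and list, with circles for WT and squares for PIGinH11. CD226, CAMK4, IKZF3 and GNLY lie above 6 in both libraries, whereas LCP2, RUNX1, FOXP1 and IQGAP2 lie below 1. Macrophage-marked nuclei were chosen to have no UMI of the T cell genes of the rule.

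The comparison with macrophage-marked nuclei, the other leukocytes of the pancreas, rests on 14 WT and 13 PIGinH11 nuclei with 49071 and 38651 UMIs. Of the haematopoietic list, which had defined support, 22 of 24 tested genes were at a log2 ratio of at least 1 over all other barcodes and 11 of 24 over macrophage-marked nuclei, counts that the choice of nuclei shaped and from which nothing is read. DOCK2 stood 1.21 and 1.18 above macrophage-marked nuclei, ARHGAP15 2.01 and 0.82, and IQGAP2 -0.21 and -0.12. Over all genes, 426 of 2188 (19.5%) reached this limit, and 92 (4.2%) were lower by the same size.

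Few cytokine UMIs were found. IFNG, TNF, LTA, IL2, IL4 and IL10 had no UMI in supported nuclei of either library, which allows up to 30.5 CPM in WT and 38.0 CPM in PIGinH11 for each. IL17A, IL22 and CSF2 were at 0 in all other barcodes as well, so no limit is given for them. IL21 had no UMI in WT and 2 UMIs in PIGinH11. IL12RB2, the inducible chain of the interleukin-12 receptor, had 43 UMIs in 19 WT nuclei and 24 UMIs in 13 PIGinH11 nuclei and was 5.14 and 5.13 above other barcodes. IL2RB, shared by the receptors for interleukin-2 and interleukin-15, had 13 and 14 UMIs. TGFBR2 had 24 UMIs in 14 WT and 41 UMIs in 26 PIGinH11 nuclei and at 500 UMIs was found in 12.9% and 31.0% of supported nuclei beside 2.11% and 2.90% of acinar-marked barcodes. Inhibitory receptors were near 0, with 2 UMIs of the list in WT and 12 in PIGinH11. CTLA4, LAG3 and HAVCR2 had none, PDCD1 had 1 UMI in WT, TIGIT 4 UMIs in PIGinH11, and ENTPD1 0 and 8.

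Markers of other blood cells were mostly low in supported nuclei. The B cell list had 86 UMIs in 6 WT nuclei, 81 of them EBF1, and 4 UMIs in PIGinH11. MS4A1, CD79B and PAX5, which mark B cells, had no UMI, and CD79A had 1. BANK1 was also at 0, but had 178 and 65 UMIs in macrophage-marked nuclei. The plasma cell list had 10 UMIs in WT, 7 of them JCHAIN, and 2 in PIGinH11. Macrophage genes other than those of the rule gave 7 UMIs in WT and 25 in PIGinH11, of which ITGAM made up 4 and 24, while C1QB, C1QC, CD68, CD14, SPI1, MARCO and LYZ were at 0. MARCO and LYZ were at 0 in macrophage-marked nuclei as well, and LYZ also in all other barcodes. ITGAM, the integrin chain CD11b that macrophages, NK cells and some T cells carry, was found in 2 WT and 10 PIGinH11 supported nuclei. Of these 12 nuclei 8 also had KLRK1 UMIs, beside 29 of all 73 supported nuclei, and no cell type is read from this. Mast cell, neutrophil and dendritic cell genes had 2 UMIs in WT and 6 in PIGinH11.

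T lineage and cytotoxic genes were not exclusive within nuclei. Supported nuclei were divided by at least 3 UMIs of 11 T lineage genes (CD3D, CD3E, BCL11B, THEMIS, IL7R, CD5, CD6, TRAT1, CD28, LEF1 and TCF7) and at least 3 UMIs of the cytotoxic list. CD3E, BCL11B, THEMIS and IL7R are genes of the rule, so the T lineage side was partly fixed by the choice of nuclei. In all, 24 nuclei passed for T lineage genes alone (9 WT, 15 PIGinH11), 9 for cytotoxic genes alone (4 and 5), 25 for both (12 and 13) and 15 for neither (6 and 9). The division is a cut through sparse counts, with 28 of the 73 nuclei within 1 UMI of a limit, and the nuclei with neither had a median of 946 UMIs against 2640 in those with both. Among the 7 nuclei with at least 3 GNLY UMIs, 2 had a UMI of CD3E, THEMIS or BCL11B, beside 52 of all 73 supported nuclei. These 3 genes helped to choose the nuclei, and no cell type is read from the count. The nucleus with the most cytotoxic UMIs in WT, with 40 among 2549 UMIs, had 21 of GNLY, 7 of NCR1 and no T lineage UMI. The corresponding PIGinH11 nucleus had 54 cytotoxic UMIs among 3547, of which 25 were KLRB1 and 12 GNLY, with 4 T lineage UMIs.

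**Figure D4:**
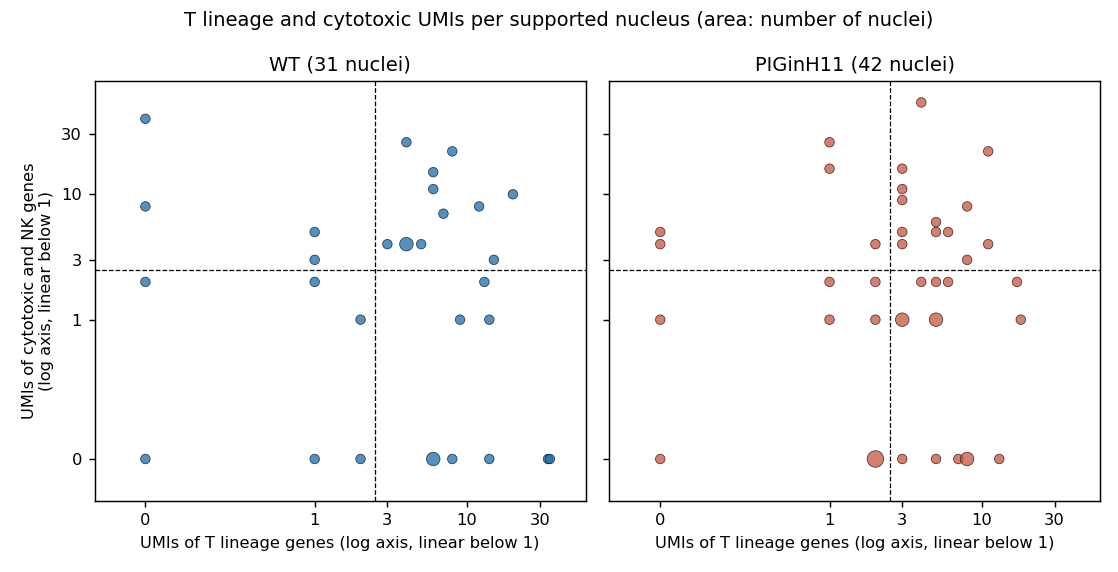
UMIs of 11 T lineage genes (x axis) and of 21 cytotoxic and NK genes (y axis) in each supported nucleus of WT (31) and PIGinH11 (42), on log axes that are linear below 1; the area of a point gives the number of nuclei and the dashed lines the limit of 3 UMIs. The nuclei fill all 4 fields, with 25 of 73 in the upper right.

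Genes outside the division and the rule were compared between its ends, where 9 nuclei stand on the cytotoxic side. Of 53 such list genes with at least 20 UMIs in these nuclei, CAMK4 and CD226 had 95% intervals that were apart in both libraries. In WT alone 4 were higher on the T lineage side and 3 on the cytotoxic side, and in PIGinH11 2 and 1, CAMK4 and CD226 included. The share over all genes was not computed, so nothing is read from these counts. The intervals cover counting error and not the difference between nuclei. CAMK4 had 62 UMIs in WT (2110 CPM, 1617 to 2704) and 35 in PIGinH11 (1283 CPM, 893 to 1784) on the T lineage side, and 4 and 1 UMIs (477 CPM, 130 to 1221, and 99.3 CPM, 2.51 to 553) on the cytotoxic side. The 4 WT UMIs on the cytotoxic side lay in 1 nucleus. In the other direction, CD226 had 238 CPM (95.8 to 491) and 366 CPM (176 to 674) on the T lineage side and 1192 CPM (572 to 2192) and 1390 CPM (760.1 to 2333) on the cytotoxic side. IKZF2, the factor Helios, had 136 CPM (37.1 to 348) against 1192 CPM (572 to 2192) in WT, but in PIGinH11 the intervals of 403 CPM (201 to 721) and 1192 CPM (616 to 2082) overlapped. RUNX1 had overlapping intervals in both libraries, with 2246 and 2162 CPM on the T lineage side and 2742 and 1291 CPM on the cytotoxic side. IKZF2 and RUNX1 were named after their values were seen. LEF1, 1 of the 11 genes of the division, had 21 and 20 UMIs in the nuclei with T lineage genes alone and none in those with cytotoxic genes alone. SKAP1, CD247 and PTPRC were not used here because the nuclei were chosen by them.

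Between the libraries, levels in supported nuclei were compared as log2 ratios of PIGinH11 over WT. Of 2188 genes with at least 20 UMIs in both libraries together, 183 (8.36%) were higher by a log2 ratio of at least 1 and 194 (8.87%) lower, and the median ratio was 0.05. In all 108 nuclei 322 of 3457 genes (9.31%) were higher and 451 (13%) lower, with a median of 0.00. Without the barcodes marked as doublets the counts in the chosen nuclei were 335 higher and 504 lower of 3249, and with free RNA subtracted, taken as the UMIs per nucleus in acinar-marked nuclei of the library, they were 238 and 313 of 1596. These counts are a description of the libraries and not a number of changed genes.

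The counts by list stand beside 8.36% of all tested genes higher and 8.87% lower, and with 4 to 18 genes in a list nothing is read from 1 gene. In the T cell receptor complex 0 of 8 tested genes reached a log2 ratio of 1 in either direction, in T cell receptor signalling 1 of 17 was higher (VAV1, with 8 and 15 UMIs), and in the transcription factors 0 of 18. In the homing and residence list 1 of 4 was lower, ITGA1, a collagen-binding integrin, with 24 and 7 UMIs and a ratio of -1.46 (-2.92 to -0.20), and the median of the 4 was -0.41. Among cytokines and receptors 1 of 5 was higher, TGFBR2 at 1.09 (0.33 to 1.88). RUNX1 had a ratio of 0.33, CAMK4 of -0.17 and ITGA4 of -0.05. In the cytotoxic list 2 of 9 were higher (KLRB1 and SAMD3, the latter with 9 and 15 UMIs) and none lower, and the list made up 0.186% of UMIs in WT (0.160% to 0.215%) and 0.287% in PIGinH11 (0.251% to 0.327%). Without the nucleus with the most such UMIs in each library these values were 0.149% and 0.229%. KLRK1 had 335 CPM in WT and 645 in PIGinH11, a log2 ratio of 0.94 (0.28 to 1.62), although its share of nuclei was 41.9% and 38.1%. GNLY had a log2 ratio of -0.11 (-0.78 to 0.55), and CD226 of 0.81 (0.21 to 1.41). IKZF1 was at 518 and 962 CPM, 0.89 (0.36 to 1.43). CD2, a gene of the rule, was at 163 and 367 CPM, 1.17 (0.25 to 2.15), and in the rule genes as a whole the choice of nuclei depends on depth.

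Several of the largest differences were held by few nuclei. KLRB1, the receptor CD161, had 1 UMI in WT and 25 in PIGinH11, a log2 ratio of 4.96 (2.35 to 10.32), but all 25 lay in 1 nucleus. KCNB2 had 1 and 19 UMIs, 18 of them in 1 nucleus. PCED1B had 2 and 20 UMIs in 2 and 10 nuclei, a log2 ratio of 3.64 (1.60 to 6.78), against 0.45 in acinar-marked nuclei. ITGAM had 4 UMIs in 2 nuclei and 24 in 10, a log2 ratio of 2.90 (1.36 to 4.89), against 1.28 in acinar-marked nuclei, and 7 of the 24 lay in the nucleus with KLRB1. AUTS2 had 7 and 41 UMIs, a log2 ratio of 2.87, beside 1.55 in acinar-marked nuclei. Of the 41 UMIs, 14, 9 and 8 lay in single nuclei that also reached an acinar or ductal minimum. In WT 6 of the 7 lay in the pair of nuclei described below. Among all chosen nuclei the direction of AUTS2 reversed when those at another class minimum were left out. LIPC had 3 UMIs in 1 WT nucleus and 17 UMIs in 5 PIGinH11 nuclei. Lower in PIGinH11 were EBF1, with 81 and 0 UMIs, THBS1 (37 and 0), DDR2 (30 and 0), ADAMTSL3 (28 and 0), KLK1 (25 and 0) and TMEFF2 (24 and 0). The TMEFF2 UMIs were in 2 nuclei, with 12 in a nucleus of 6026 UMIs that also held EBF1. The KLK1 UMIs were in 17 nuclei, and KLK1 had a log2 ratio of -2.42 in acinar-marked nuclei. With 3 UMIs over the group as the limit of a count of 0, KLK1 was at least 6.69-fold lower. No such limit is given for EBF1, because 80 of its 81 WT UMIs lay in 2 nuclei.

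A pair of WT nuclei with 6026 and 7042 UMIs held 80 of the 81 EBF1 UMIs. The same pair held all UMIs of THBS1, DDR2, ADAMTSL3 and ABCA8, all 48 of RBMS3, 70 of 71 of NEGR1 and 52 of 62 of SLIT2. These genes were picked because the pair held them, and no cell type is named from them. The fibroblast list had 21 UMIs in all supported WT nuclei. Of these the pair held 4 of 6 of COL3A1, 3 of 4 of COL1A2 and all 3 of PDGFRA. It also held 2 of 3 of COL1A1, 2 of 4 of DCN and the 1 of LUM. The B cell genes MS4A1 and PAX5 were at 0 in the pair. The pair had 7 of 70 THEMIS UMIs, 4 of 16 CD2 UMIs and 13 of 35 CD96 UMIs as well. Without the pair, 154 genes were higher and 147 lower in PIGinH11 by a log2 ratio of 1, of 2022 tested.

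**Figure D5:**
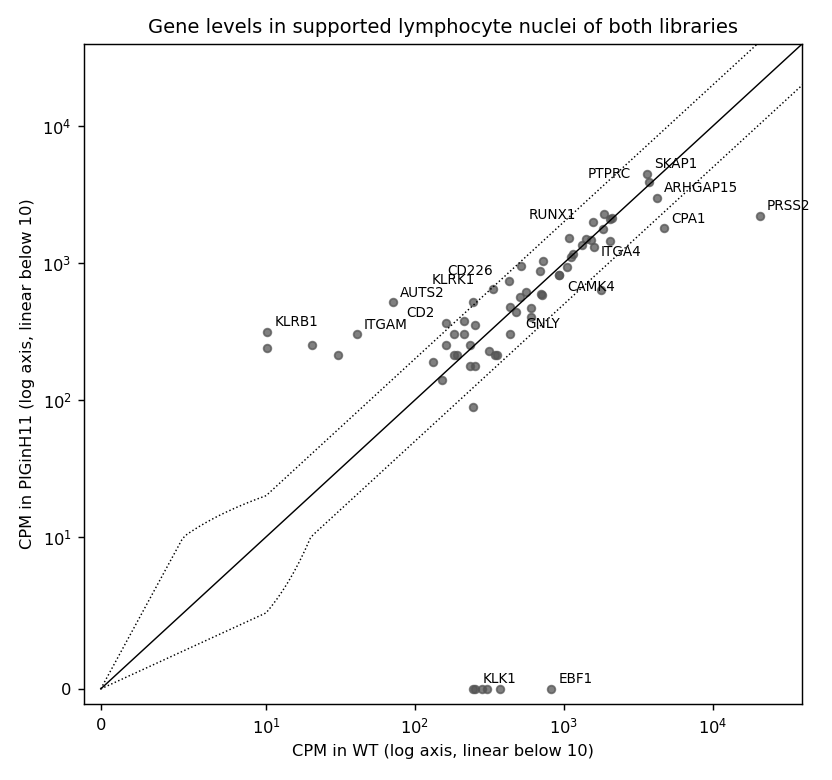
Level of the named genes with at least 20 UMIs in supported nuclei of WT (x axis) and PIGinH11 (y axis), in CPM on log axes that are linear below 10; the solid line marks equal levels and the dotted lines a log2 ratio of 1 in either direction. PTPRC, ITGA4 and GNLY lie between the dotted lines, CD2 and KLRB1 above them, the enzymes PRSS2 and CPA1 below them, and EBF1 and KLK1 at 0 in PIGinH11.

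Digestive enzyme RNA in the supported nuclei moved with the library. Digestive enzymes, which lymphocytes do not make, were 3.74% of UMIs in supported WT nuclei and 0.906% in PIGinH11, with UMIs in all 31 and all 42 nuclei, and 6 of 9 tested enzymes were lower by a log2 ratio of at least 1, beside 8.87% of all genes tested. PRSS2, a trypsinogen, was at 20749 and 2227 CPM, a log2 ratio of -3.22 (-3.45 to -3.00), beside -3.09 in acinar-marked nuclei. CPA1, a carboxypeptidase, was at 4745 and 1797 CPM. The non-enzyme acinar genes were 0.271% and 0.292% of UMIs and did not follow the enzymes. The enzymes therefore take a larger share of the CPM scale in WT. With enzyme, ribosomal and mitochondrial genes left out of the total, 280 genes were higher and 490 lower in the 108 nuclei, and the median ratio was -0.05. In the 108 nuclei the genes with the lowest ratios were led by HSP70.2, with 114 and 0 UMIs, and ZNF565 (30 and 0), and those with the highest by COL11A2 (0 and 21), EPHA6 (3 and 19), ESR2 (9 and 36) and MOSPD1 (3 and 19). In acinar-marked nuclei HSP70.2 had a log2 ratio of -5.85, COL11A2 of 8.83, EPHA6 of 2.20 and ESR2 of 2.43, so these differences ran in the same direction there. ZNF565 at -0.78 and MOSPD1 at 0.32 ran in the same direction too, with smaller ratios. Of the 114 HSP70.2 UMIs 11 were in supported nuclei, and of the 36 ESR2 UMIs 3 were.

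Proliferation genes were scarce, with 38 UMIs of the list in 8 supported WT nuclei and 8 UMIs in 3 PIGinH11 nuclei. The highest count was 10 UMIs in a WT nucleus of 3036 UMIs, of which 6 were CENPE, the kinesin of the mitotic centromere, and the median nucleus had none. TOP2A had 6 and 1 UMIs and CENPF 8 and 0. Heat-shock and immediate-early genes, which rise when tissue is handled, made up 0.0874% of UMIs in supported WT nuclei and 0.0481% in PIGinH11, with HSP90AA1 at 34 UMIs, 19 of them in 1 nucleus, and at 17 UMIs, and FOSB, JUNB and DUSP1 at 0.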

How the data were processed

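The authors aligned reads to Sscrofa11.1, called barcodes by EmptyDrops and deposited raw UMI counts per gene and barcode, before their doublet removal. The paper's methods name Cell Ranger 3.1.0 and the file headers 5.0.0. UMIs were summed per class and divided by the class total (CPM). No p-value was computed, since each group has 1 library. Intervals were Clopper–Pearson (shares), Poisson (CPM) and conditional binomial (ratios), tested on simulated data. Genes with at least 20 UMIs over both libraries were tested against a log2 ratio of 1. Doublets were kept, and Scrublet (scanpy 1.11.5) scores were used to mark 0.8% per 1000 barcodes. Members, gene lists and limits were chosen with earlier results of these data known. Named genes were those of the rule, up to 4 per list with the most UMIs, the 10 highest over other barcodes and the 6 highest and 6 lowest ratios, and list members given as present or absent. Gene positions are those of RefSeq for Sscrofa11.1. In the files 311 of 342 list genes were found, and 851 of 15410 genes without a symbol were named from the reference tables. Alternatives were other limits of the rule, no doublets, free RNA subtracted, thinning to 500 UMIs (seed 0), other scalings, offsets and UMI minimums. The limits for the supported nuclei, the pair of EBF1 nuclei and the sum without SKAP1 were added after the data had been seen. Results for 3 genes are not reported here.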

Additional observations from a re-analysis of the deposited data

How the results depend on the processing

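The number of barcodes taken depended on the rule and was 53 in WT and 55 in PIGinH11 as reported, supported or not. It was 128 and 105 with no minimum share of T cell UMIs, 27 and 33 at a share of 0.3%, and 1812 and 1088 when PTPRC was not required. Of the barcodes without PTPRC, only 15 of 1759 in WT and 37 of 1033 in PIGinH11 had at least 0.5% of UMIs in the haematopoietic list. The number taken was 23 in WT when the rule was applied to nuclei thinned to 500 UMIs, and 13 and 21 without nuclei at another class minimum. It was 31 in WT for supported nuclei, and 19 and 29 with SKAP1 left out of the sum. Supported nuclei without the pair rich in EBF1 were 29 in WT, and those below every other class minimum were 12 and 21. The genes higher and lower in PIGinH11 by a log2 ratio of 1, 322 and 451 as reported, were 152 and 168 at a share of 0.3%, 145 and 160 for the thinned rule, 132 and 107 without nuclei at another class minimum, 183 and 194 for supported nuclei, 109 and 106 without SKAP1 in the sum, 154 and 147 without the EBF1 pair, and 98 and 68 in supported nuclei below other class minimums. They were 49 and 36 with each nucleus thinned, 697 and 944 at a minimum of 10 UMIs, 126 and 162 at 40, and 3348 and 4674 at 1. Those higher were 602 with no minimum share and 1968 without PTPRC, and those lower were 206 in supported nuclei without the PTPRC condition. Median-of-ratios scaling gave 198 higher and moved the median of all genes to -0.18. The share of higher among these genes was 41.7% as reported, 52.7% with no minimum share, 76.7% without PTPRC, 55.2% without nuclei at another class minimum, 57.3% in supported nuclei without PTPRC, 59.0% in those below other class minimums, 25.6% under median-of-ratios scaling and 57.6% after thinning. KLRK1 was found in 13.2% of WT and 14.5% of PIGinH11 nuclei after thinning and in 41.9% of supported WT nuclei, ITGA4 in 34.0% of thinned WT nuclei and in 90.3% and 73.8% of supported nuclei, and DOCK2 in 24.5% and 43.6% of thinned and 90.3% and 88.1% of supported nuclei. KCNB2 reversed, since 110 of its 112 WT UMIs lay in 1 unsupported nucleus. Its log2 ratio was -1.59 in all nuclei, 4.56 in supported nuclei, 4.36 without the EBF1 pair, 5.13 in supported nuclei without PTPRC, 4.38 for the thinned rule and 2.73 without PTPRC. AUTS2 reversed from 1.54 to -2.27 without nuclei at another class minimum, a setting that kept the WT nucleus with 17 of the 32 WT AUTS2 UMIs and left out the PIGinH11 nuclei with 14, 9, 8, 6 and 4. No paired analysis was possible because each group had 1 library, and for the same reason no replicate could be left out. Depth limits the genes named at 0 in supported nuclei that had UMIs in other barcodes, which may be present below 30.5 CPM in WT and 38.0 CPM in PIGinH11.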
